A study of Mus musculus with 28 samples.

Results

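The miR-30 family is a set of closely related microRNAs (miRNAs), short RNAs that guide Argonaute proteins to messenger RNAs. The members described here are 5 arms from the 5p side, mmu-miR-30a-5p, mmu-miR-30b-5p, mmu-miR-30c-5p, mmu-miR-30d-5p and mmu-miR-30e-5p, and 3 from the 3p side, mmu-miR-30a-3p, mmu-miR-30e-3p and mmu-miR-30c-2-3p (mmu stands for mouse and is left out from here on). They were taken by name, as 8 of the 1408 miRNA names in 3 count tables. The tables come from a study of small RNA in mouse sperm. Earlier results of these data were known when the members were chosen. Each member was followed through all 28 libraries, as CPM, its count in a library of 1000000 miRNA reads, after scaling between libraries.

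The wild type (WT) libraries were 4 controls without alcohol and 8 with alcohol, of which 4 had the low, 2 the medium and 2 the high dose. What these doses amount to is not given in the sources used here. Another 4 control and 4 ethanol libraries came from Nrf2-/- mice, in which the control animals also lack Nrf2, the transcription factor that switches on antioxidant genes (gene symbol Nfe2l2). The last 8 libraries were 4 from mice with floxed Nrf2 and 4 from mice that carried floxed Nrf2 together with Albumin-Cre, here the liver KO. The Albumin promoter is active in hepatocytes, so this Cre does not target the sperm themselves, and no alcohol is named for either of these groups. The 3 sets were sequenced in separate lanes and deposited in separate tables, so genotype and sequencing lane cannot be told apart and levels are compared between sets only as a description. Nothing says that replicates came from separate mice, so the p-values measure the spread between these samples, which may be technical. One WT medium dose library (number 1) had a count column whose name begins like those of the high dose libraries, and the labels were followed.

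A miRNA hairpin is cut by Drosha and then Dicer into a short duplex, and 1 strand, the 5p or the 3p arm, is usually kept in Argonaute while the other is lost. Targets are recognised mainly through the seed, bases 2 to 8 of the arm. The 5p arms of the family share a seed and so can bind many of the same messenger RNAs. The family is abundant in epithelia and kidney, is known for restraining epithelial-to-mesenchymal transition, and has been reported among the sperm miRNAs that differ after paternal stress.

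The mature sequences below are shown because the family is defined by its seeds and because members that differ by single bases are counted as separate rows. They are RefSeq sequences (GRCm38.p6), written 5′ to 3′ with the seed in capitals, and 6 of the 8 members had an entry. miR-30b-5p and miR-30d-5p are described by name only. The 5p arms with an entry were:
miR-30a-5p: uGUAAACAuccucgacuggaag
miR-30c-5p: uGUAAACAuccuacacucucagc
miR-30e-5p: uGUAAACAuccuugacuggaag
The 3p arms of miR-30a and miR-30e shared another seed:
miR-30a-3p: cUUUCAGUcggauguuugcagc
miR-30e-3p: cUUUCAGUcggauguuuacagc
The 3p arm of the second miR-30c hairpin had another seed again, UGGGAGA, which it shares with miR-30c-1-3p and miR-6958-5p:
miR-30c-2-3p: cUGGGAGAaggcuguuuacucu

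The seed of the 5p arms, GUAAACA, occurred in 4 of 1679 mature miRNA names of the RefSeq table, the other being miR-384-5p. miR-30b-5p and miR-30d-5p had no entry there and are outside this count. With positions counted from 1 at the 5′ end and the miR-30a base given first, miR-30a-5p and miR-30e-5p were both 22 bases long and differed by C13U alone. miR-30a-3p and miR-30e-3p differed by G18A alone. miR-30c-5p, 23 bases long, matched the first 12 bases of miR-30a-5p and differed from it at 5 of the 22 positions compared. The arms therefore have nearly the same length. Reads that end before the differing base, or carry an error at it, can be hard to assign between miR-30a and miR-30e. How the authors assigned such reads was not given in the sources used here.

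By RefSeq coordinates (GRCm38.p6), Mir30a lies on the plus strand of chromosome 1, chr1:23272269-23272339, where the GENCODE annotation has no other gene. Mir30c-2 lies 19361 bases further along the same strand, chr1:23291701-23291784, in an exon of the long noncoding RNA gene Gm27028. Mir30c-1 (chr4:120769534-120769622) and Mir30e (chr4:120772606-120772697) are 2983 bases apart on the minus strand of chromosome 4, both in an intron of Nfyc, which encodes a subunit of the transcription factor NF-Y. miR-30c-5p is identical from both of its hairpins, so its reads cannot be divided between chromosomes 1 and 4. The build used for the counts was not given, and these positions describe the reference only.

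Total counts ran from 1993933 to 11119711 per library, of which 227577 to 2744712 were miRNA reads. Scaling factors (TMM, which sets the bulk of miRNAs level between libraries) ran from 0.703 to 1.61, except for WT control 4 at 2.06. Exon reads of 12 sperm and spermatid genes, among them the protamines Prm1 and Prm2, were found in every group, with a summed level of 199 to 1088 CPM of all counts. Exon reads of the targeted gene Nfe2l2 numbered 4 to 47 per WT library, 0 to 20 in Nrf2-/- libraries, 9 to 20 in flox and 0 to 22 in liver KO libraries, too few to check the genotype labels. RNA of other cells was also present: summed epididymis epithelium markers ran from 42.2 to 1941 CPM. In such bulk samples fewer cells of a type and less RNA per cell cannot be told apart.

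Before levels are given, 16 values in the WT table have to be set aside. A count of 0 was treated as missing where over 50 reads were expected from the other libraries of the table, and this applied to 3 members. For miR-30a-5p these were 6 of 12 WT libraries (control 4, low dose 1, 3 and 4, medium dose 1 and high dose 2), where 2516 to 5192 reads were expected. In those same libraries its partner arm miR-30a-3p was read at 95.9 to 212 CPM, against 127 to 184 CPM in the libraries that had both arms. miR-30d-5p was listed at 0 in 8 of 12 WT libraries and had a value only in WT control 1, low dose 1 and 4 and high dose 1. miR-30e-5p had no reads in 2 WT libraries, control 3 and low dose 1, with 709 and 5049 reads expected. In other WT libraries the same rows held 717 to 4949 reads for miR-30a-5p, 1621 to 19263 for miR-30d-5p and 488 to 6338 for miR-30e-5p. The 2 WT libraries with all 5 of the 5p arms were control 1 and high dose 1. No member was missing in the Nrf2-/- or the flox and liver KO tables. Over all miRNAs the WT libraries had 148 missing values in 54 of them, so the family was not alone in this.

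**Figure D1:**
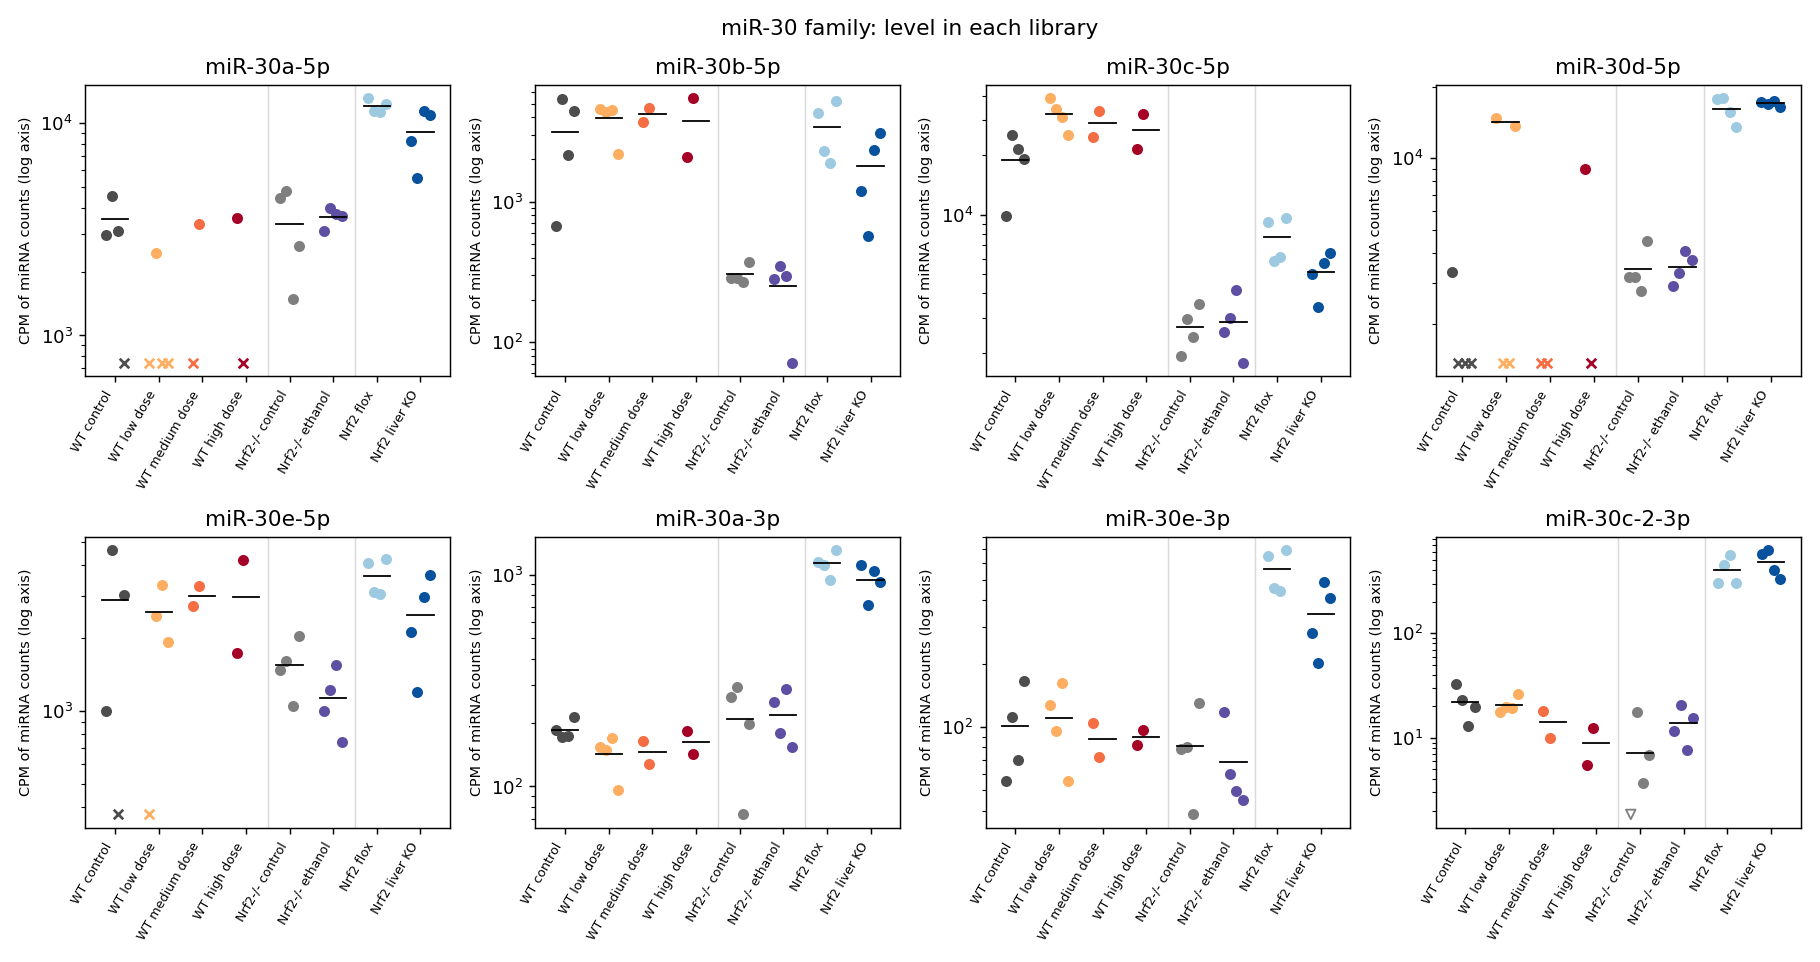
Level of each member (CPM of miRNA counts, log axis) in every library, by group. Points are libraries, black bars are means of groups with 2 or more values, crosses at the foot mark missing values and the open triangle a count of 0. The crosses are all in the WT groups, 6 for miR-30a-5p, 8 for miR-30d-5p and 2 for miR-30e-5p.

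miR-30c-5p had the highest mean in every WT group among members with a value there, miR-30d-5p having none at the medium dose. It was read at 9795, 25369, 21558 and 19166 CPM in the 4 WT controls, at 38804, 34101, 31280.3 and 25290.5 CPM at the low dose, at 24689 and 33355 CPM at the medium dose and at 21499.5 and 32116 CPM at the high dose. WT control 1 was the lowest of the 12 libraries, and the ranges of the controls and of each dose overlapped, at the low dose by a narrow margin. These ranges hold after scaling. Before scaling, WT control 4 (scaling factor 2.06) had 40413 miR-30c-5p reads of 1024039 miRNA reads, a larger share than in any other WT library. In the Nrf2-/- set miR-30c-5p levels were lower, with 1921, 2975, 2403 and 3539.5 CPM in controls and 2554, 3016, 4145 and 1786 CPM after ethanol. In the flox libraries it was read at 9179, 5833, 6109.6 and 9583 CPM and in the liver KO at 4985, 3397, 5729 and 6416 CPM.

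miR-30d-5p was the most abundant member of the flox and liver KO set. In the flox libraries it stood at 17706, 17896, 15575 and 13560.2 CPM and in the liver KO at 17269.8, 16886, 17482 and 16438 CPM. It was the steadiest member there, with a highest library 1.32 times the lowest. In the Nrf2-/- set it was read at 3177, 3181, 2762 and 4507 CPM in controls and 2909.7, 3284, 4079 and 3735 CPM after ethanol. The 4 WT values were 3315 CPM (control 1), 14717 and 13604 CPM (low dose 1 and 4) and 9001 CPM (high dose 1).

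miR-30a-5p was read at 2964, 4533 and 3110.1 CPM in the 3 WT controls where it was present, and at 2452, 3335 and 3571 CPM in the single low, medium and high dose libraries that had it. The Nrf2-/- controls stood at 4423, 4802, 1489 and 2639.7 CPM and the ethanol libraries at 3112, 3978, 3721 and 3659.9 CPM. The flox libraries stood at 13104, 11350.1, 11329 and 12277 CPM, and the liver KO at 8254, 5504, 11410.1 and 10976 CPM. Its near twin miR-30e-5p was lower in most libraries. It was read at 998, 4635 and 3006 CPM in WT controls 1, 2 and 4, from 998 to 4635 CPM over the 10 WT libraries that had it, at 745 to 2035 CPM in the Nrf2-/- set and at 1201 to 4264 CPM in the flox and liver KO set. The ratio of miR-30a-5p to miR-30e-5p within a library was 0.978 to 2.97 in 5 WT libraries, 1.30 to 4.91 in the Nrf2-/- set and 2.88 to 4.58 in the flox and liver KO set.

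miR-30b-5p varied widely. WT controls ran from 671 CPM in control 1 to 5368 CPM in control 2, a range of 8.00-fold within a group, and the other WT libraries stood between 2066 and 5460.3 CPM. In the Nrf2-/- set 7 of 8 libraries held 269.99 to 371 CPM and ethanol 4 held 71.5 CPM. In the flox and liver KO set it ran from 566 to 5225 CPM. miR-30b and miR-30d are known to come from a shared cluster. The ratio of miR-30d-5p to miR-30b-5p ran from 2.60 to 29.9 in the flox and liver KO set, an 11.5-fold spread. In Nrf2-/- controls it was nearly constant, at 10.2 to 12.1, and after ethanol it was 10.4, 9.35, 13.8 and 52.3 in libraries 1 to 4. The 4 WT libraries with both arms stood at 3.21 to 6.18.

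Within a group only some neighbours in the order of the 5p arms had ranges apart. In WT controls miR-30c-5p lay above the ranges of all the others, and miR-30a-5p, miR-30d-5p, miR-30b-5p and miR-30e-5p overlapped one another as neighbours. In Nrf2-/- controls miR-30d-5p, miR-30a-5p, miR-30c-5p and miR-30e-5p overlapped as neighbours, and miR-30b-5p lay below them. In flox libraries miR-30d-5p, miR-30a-5p and miR-30c-5p followed each other with no overlap, ahead of miR-30e-5p and miR-30b-5p, which overlapped. In the liver KO miR-30d-5p was the one 5p arm with a range apart from the next.

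Composition could be given as shares of the summed 5p CPM in the 18 libraries with no missing 5p arm. miR-30c-5p made up 55.2% and 56.8% in the 2 complete WT libraries, 24.3% ± 5.66 (SD, n = 4) in Nrf2-/- controls, 24.8% ± 5.08 after ethanol, 17.7% ± 3.07 in flox and 14.3% ± 1.46 in the liver KO. miR-30d-5p made up 30.5% ± 4.88 in Nrf2-/- controls, 31.05% ± 4.30 after ethanol, 38.0% ± 6.06 in flox and 49.2% ± 9.21 in the liver KO, where liver KO 2 reached 61.3%. miR-30b-5p held 2.75% ± 0.489, 2.17% ± 1.03, 7.79% ± 3.05 and 4.76% ± 2.45 in the same order of groups. The 5 arms together took 0.747% to 1.54% of miRNA reads in the Nrf2-/- set and 2.44% to 5.46% in the flox and liver KO set.

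**Figure D2:**
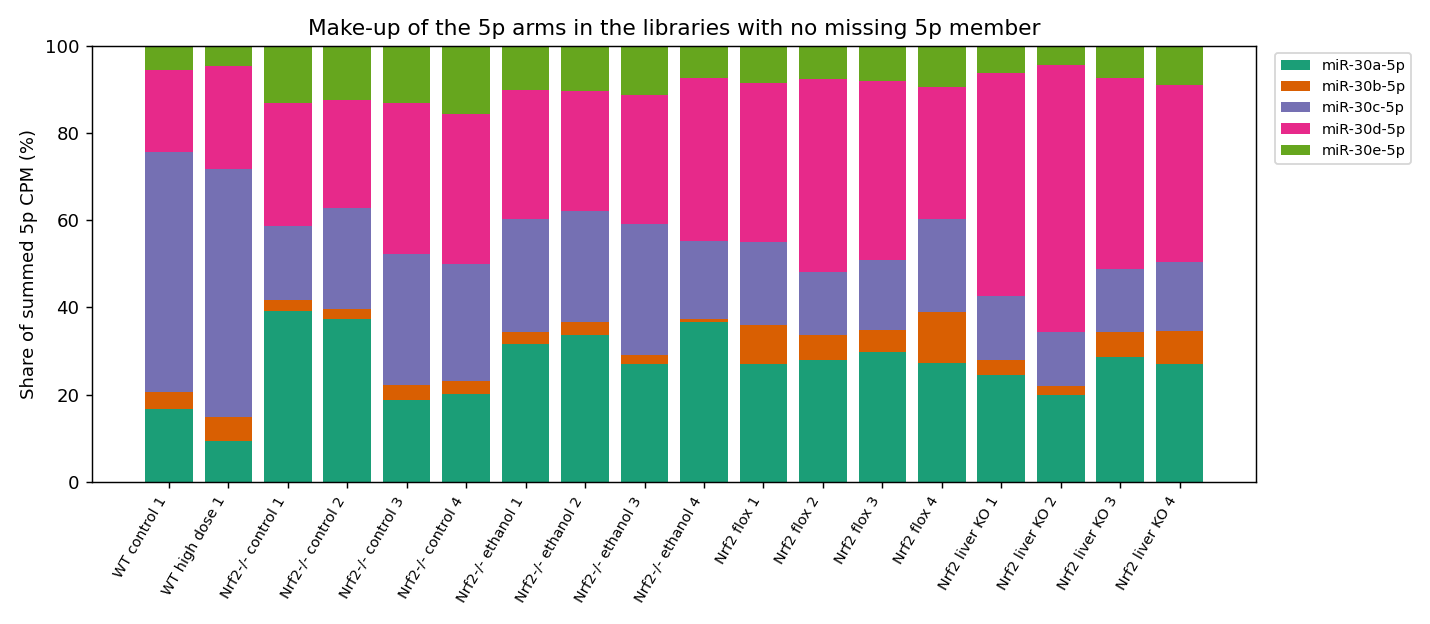
Share of each 5p arm in the summed 5p CPM (%), 1 bar per library, for the 18 libraries with no missing 5p arm. miR-30c-5p fills over 55% of both WT bars, and miR-30d-5p is the widest band in the flox and liver KO bars, from 30.2% to 61.3%.

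The 3p arms were scarcer than their partners in every library where both had a value. miR-30a-3p was read at 184, 171, 174 and 212 CPM in WT controls and 154, 148, 169.6 and 95.9 CPM at the low dose. It stood at 73.8 to 293 CPM in the Nrf2-/- set and 718 to 1309 CPM in the flox and liver KO set. miR-30a-5p exceeded it 16.1 to 26.5 times in the WT table, 12.5 to 23.9 times in the Nrf2-/- table and 7.45 to 12.0 times in the flox and liver KO table. miR-30e-3p, which was read at 55.2 to 166, 38.4 to 129.5 and 201 to 696 CPM in those tables, was exceeded by miR-30e-5p 18.1 to 45.8, 8.44 to 31.1 and 5.98 to 8.87 times.

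miR-30c-2-3p differed widely between the tables. It was read at 32.7, 22.9, 13.0 and 19.9 CPM in WT controls, from 3 to 42 reads, and at 11.6, 20.4, 7.71 and 15.4 CPM in Nrf2-/- ethanol libraries, while Nrf2-/- control 1 had none. In flox libraries it stood at 305, 456, 566 and 306 CPM and in the liver KO at 575, 629, 405 and 334 CPM. miR-30c-5p, which can come from 2 hairpins, exceeded it 299 to 3894 times in the WT table and 5.40 to 31.3 times in the flox and liver KO table. The related arms outside the 8 members were rare: miR-30b-3p, miR-30c-1-3p and miR-30d-3p reached 4, 9 and 5 reads in a WT library and 40, 27 and 10 reads in a flox or liver KO library. Hairpin rows of the family held at most 41 reads in any library, a value reached by mir-30e.

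**Figure D3:**
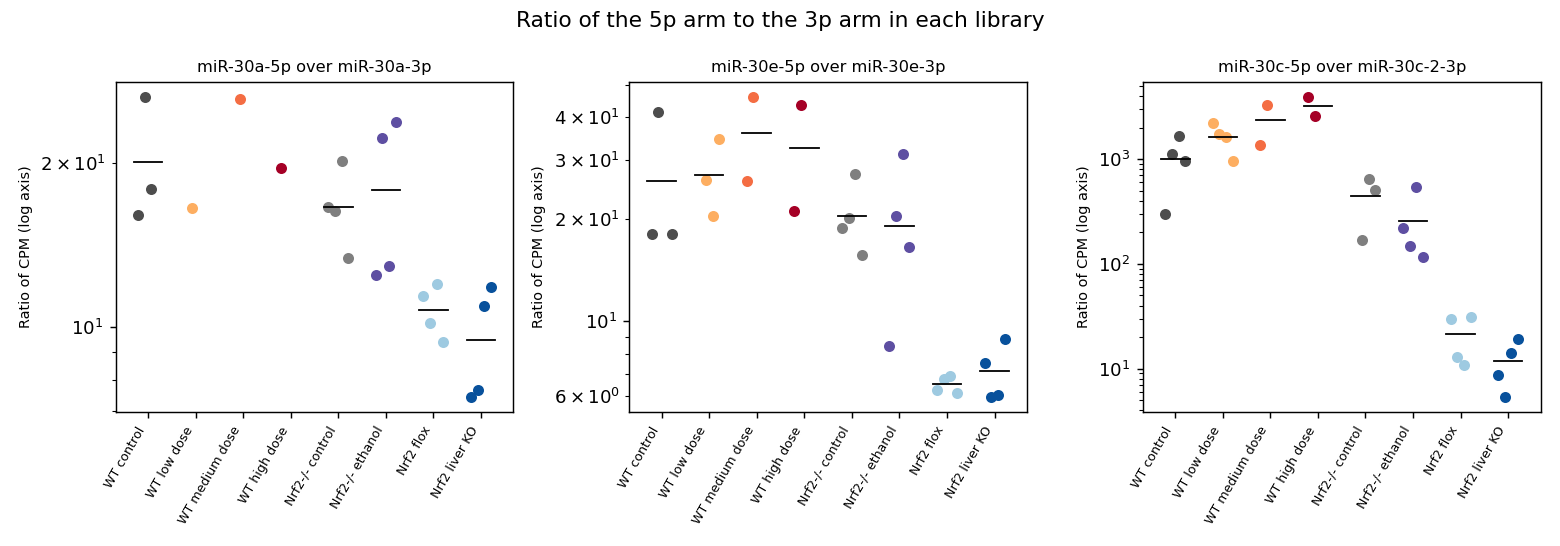
Ratio of 5p to 3p CPM in each library (log axis) for miR-30a, miR-30e and miR-30c with the arm of its second hairpin. Points are libraries and bars are means of groups with 2 or more values. Ratios for miR-30c run from 5.40 to 31.3 in the flox and liver KO set and from 299 to 3894 in the WT set.

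Arm balance, the log2 ratio of the 5p to the 3p CPM with 1 CPM added to each, was tested within each table by an exact two-sided permutation test, 6 tests in all. For miR-30a it was 3.21 ± 0.35 (SD, n = 4) against 3.42 ± 0.16 (n = 4), a difference of -0.20 with an exact permutation p of 0.314 in liver KO against flox. In Nrf2-/- mice it was 4.09 ± 0.50 (SD, n = 4) against 4.03 ± 0.24 (n = 4), a difference of 0.06 with an exact permutation p of 0.857 for ethanol against control. For miR-30e it was 2.81 ± 0.27 (SD, n = 4) against 2.70 ± 0.08 (n = 4), a difference of 0.11 with an exact permutation p of 0.543 in liver KO against flox, and 4.09 ± 0.78 (SD, n = 4) against 4.31 ± 0.32 (n = 4), a difference of -0.22 with an exact permutation p of 0.743 for ethanol against Nrf2-/- control. At the low dose miR-30e gave 4.71 ± 0.37 (SD, n = 3) against 4.56 ± 0.69 (n = 3), a difference of 0.15 with an exact permutation p of 0.8, and 3 libraries against 3 cannot give a p below 0.1. miR-30a had a single low dose library with both arms, which differed from the 3 controls by -0.25 (exact permutation p 0.75), and that test cannot give a p below 0.25. The adjusted p was 0.857 in all 6 tests, and no difference in arm balance was detectable. The design allows little: 4 libraries against 4 cannot give a p below 0.0286, and a single test at that value would not pass 0.05 after adjustment over 6.

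At the low dose of alcohol no member of the family passed the adjusted threshold of 0.05 in edgeR's quasi-likelihood test, and neither did any of the 336 miRNAs tested, a background of 0%. The members were split evenly, 4 higher and 4 lower, with a median log2 fold change of 0.0053 against -0.048 over all miRNAs. At an unadjusted p below 0.05 there was 1 member, miR-30d-5p, beside 38 of 336 miRNAs (11.3%). Under another scaling, by the plain total of miRNA counts, the median of all miRNAs moved from -0.048 to -0.58 and 6 of 8 members were lower, so directions at this dose hold relative to the bulk of miRNAs only.

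miR-30c-5p had the clearest values among members with all 8 libraries. The low dose group averaged 32369 CPM ± 5648 (SD, n = 4) and the controls 18972 CPM ± 6630.0 (SD, n = 4), a log2 fold change of 0.77 ± 0.38 (SE), unadjusted p 0.0681 and adjusted p 0.406 (edgeR), or 1.71-fold. After scaling, the lowest low dose library, at 25290.5 CPM, lay just under the highest control, at 25369 CPM. Before scaling, miR-30c-5p was a larger share of the miRNA reads in WT control 4 than in any low dose library. DESeq2, used as an alternative, called miR-30c-5p (log2 fold change 0.78, adjusted p 0.0351) and miR-30d-5p (1.81, adjusted p 0.000394) among 26 miRNAs. miR-30d-5p had a log2 fold change of 2.09 ± 0.62 (SE), unadjusted p 0.0386 and adjusted p 0.406 (edgeR), and this rests on WT control 1 alone for the controls against low dose 1 and 4. WT control 1 was also the lowest library of the WT table for 5 of the 8 members. Its miRNA reads were 4.26% of all its counts, against 11.4% to 21.1% in the other WT libraries. Without WT control 1 miR-30c-5p had a log2 fold change of 0.56, and without WT control 4, whose scaling factor stood apart, 0.77. With WT control 1 left out, miR-30d-5p had no control value.

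miR-30b-5p averaged 3919 CPM ± 1149 (SD, n = 4) with the low dose and 3152 CPM ± 2138 (SD, n = 4) without alcohol, a log2 fold change of 0.31 ± 0.61 (SE), unadjusted p 0.617 and adjusted p 0.871 (edgeR). miR-30e-5p, with 3 libraries in each group, had a log2 fold change of -0.16 ± 0.63 (adjusted p 0.946), and miR-30a-5p, with 1 low dose library, -0.53 ± 1.13 (adjusted p 0.887). Among the 3p arms, miR-30a-3p averaged 142 CPM ± 32.0 (SD, n = 4), the controls 185 CPM ± 18.7 (SD, n = 4), and the test gave a log2 fold change of -0.38 ± 0.31 (SE), unadjusted p 0.252 and adjusted p 0.65 (edgeR). Its groups did not overlap, the highest low dose library at 169.6 CPM lying just below the lowest control at 171 CPM. That was the case for 1 of the 5 members with no missing value in these groups and for 28 of 295 such miRNAs (9.49%). miR-30e-3p gave 0.12 ± 0.46 (adjusted p 0.944) and miR-30c-2-3p -0.11 ± 0.43 (adjusted p 0.944). Summed exon reads of 6 red blood cell genes, mainly globins, stood at 34.7 to 63.8 CPM of all counts in the low dose libraries and 1.89 to 13.5 CPM in controls, with Hba-a1 at 0 in at least 1 control. The 4 of these genes that could be tested were higher, with a median log2 fold change of 3.02, and 0 passed the adjusted threshold. At an unadjusted p below 0.05 (edgeR) there were 4, beside 1436 of 18647 features outside miRNAs. Epididymis markers stood at 149 to 418 against 237 to 638 CPM. Their part in the values above was not tested.

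At the medium and high doses, with 2 libraries each, no member and no miRNA passed the adjusted threshold (0% of 331 and of 329 tested), and DESeq2 called 0 at both doses. Members with an unadjusted p below 0.05 numbered 0 at the medium dose, where 2.42% of miRNAs did so, and 1 at the high dose, where 2.74% did. At the medium dose the member with the lowest p was miR-30c-5p, with a log2 fold change of 0.61 ± 0.45 (SE), unadjusted p 0.203 and adjusted p 0.798 (edgeR), and miR-30d-5p could not be tested. At the high dose it was miR-30c-2-3p, read at 5.52 and 12.3 CPM (6 and 13 reads) against 32.7, 22.9, 13.0 and 19.9 CPM in controls, with a log2 fold change of -1.32 ± 0.56 (SE), unadjusted p 0.0398 and adjusted p 0.996 (edgeR). Its 2 high dose libraries lay below all 4 controls, which 24 of 296 miRNAs with no missing value (8.11%) also did in 1 direction or the other. miR-30a-3p did so at the medium dose, beside 44 of 297 (14.8%), at 164 and 127 CPM. For the mean of the 3 doses against control, 0 of 7 members tested and 0% of 327 miRNAs passed, and the lowest p was that of miR-30c-2-3p, with a log2 fold change of -0.69 ± 0.37 (SE), unadjusted p 0.0927 and adjusted p 0.526 (edgeR). Without adjustment 9.17% of miRNAs and 0 members were below 0.05, and DESeq2 called 5 miRNAs, none of them members. The 3 doses share the same 4 controls, so their values are not independent of each other.

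In Nrf2-/- mice no member passed the threshold in edgeR between ethanol and control, with 0% of 237 miRNAs called and 1.27% at an unadjusted p below 0.05, none of them members. DESeq2 called 0 members and 0 miRNAs. Members were 5 higher and 3 lower with a median log2 fold change of 0.053, against -0.088 over all miRNAs. miR-30a-5p averaged 3618 CPM ± 364 (SD, n = 4) after ethanol and 3338 CPM ± 1552 (SD, n = 4) in controls. miR-30d-5p averaged 3502 CPM ± 512 (SD, n = 4) and 3407 CPM ± 759 (SD, n = 4), and miR-30c-5p 2875 CPM ± 987 (SD, n = 4) and 2709.6 CPM ± 701 (SD, n = 4). Their log2 fold changes were 0.12 ± 0.52, 0.04 ± 0.44 and 0.086 ± 0.49 (SE), each with an adjusted p of 0.987 (edgeR). The intervals of 2 SE on either side of these values, -0.91 to 1.15 for miR-30a-5p and -0.85 to 0.92 for miR-30d-5p, leave room for differences of about 2-fold in both directions. No member had groups that did not overlap, while 5 of 201 miRNAs (2.49%) did.

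miR-30e-5p was read at 999, 1216, 1546 and 745 CPM after ethanol and 1473, 1609.7, 1045 and 2035 CPM in controls, and the groups overlapped. It had a log2 fold change of -0.45 ± 0.50 (SE), unadjusted p 0.389 and adjusted p 0.987 (edgeR). miR-30b-5p had a log2 fold change of -0.28 ± 0.61, with ethanol 4 at 71.5 CPM and the other 3 ethanol libraries at 281 to 351 CPM. The 3p arms gave 0.065 ± 0.60 for miR-30a-3p, -0.26 ± 0.59 for miR-30e-3p and 0.94 ± 1.05 for miR-30c-2-3p, the last from 0 to 48 reads per library and with 0.42 without control 1 and 2.11 without control 2. Adjusted p was 0.987 for each of these 4. Scaling by the plain total moved the median of all miRNAs from -0.088 to -0.45 and turned 7 of 8 members lower. Nrf2-/- control 3, with the lowest level of 4 members, had summed epididymis markers of 55.8 CPM. Control 4, with the highest level of 4 members, had 42.2 CPM, and controls 1 and 2 had 1589 and 1325 CPM. These lowest and highest levels hold after scaling, with factors of 1.61 for control 3 and 0.79 for control 4. Before scaling, the 5p arms together took 1.28% of miRNA reads in control 3 and 1.03% in control 4. All 12 sperm genes were lower after ethanol (median log2 fold change -0.86, none called), against a median of -0.28 over all features outside miRNAs. Their sum was 248 to 339 CPM after ethanol. In controls 1 and 2 it was 199 and 248 CPM and in controls 3 and 4 it was 853 and 1088 CPM. All 7 smooth muscle and fibroblast genes were higher (median 0.54, none called), at 48.1 to 120.3 CPM against 38.5 to 77.8 CPM. All 4 hepatocyte genes were also higher (median 1.03, none called), at 29.2 to 169 CPM against 21.6 to 59.2 CPM. The part of these cell types in the values of the family was not tested.

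The response in Nrf2-/- mice was compared with the WT response, the mean of the 3 doses, as a difference of differences over both tables. For miR-30d-5p there was no such test, and 0 of the 7 other members passed. Of all miRNAs 0% of 371 did, with 5.93% and 0 members at an unadjusted p below 0.05. The member with the lowest p was miR-30c-2-3p, with a log2 fold change of 1.69 ± 1.09 (SE), unadjusted p 0.139 and adjusted p 0.728 (edgeR). With 1 library left out this value ran from 1.007 (without Nrf2-/- control 1) to 2.49 (without Nrf2-/- control 2, unadjusted p 0.0411 and adjusted p 0.505). DESeq2 called 2 miRNAs and 0 members. Different responses of the family with and without Nrf2 were not detectable.

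**Figure D4:**
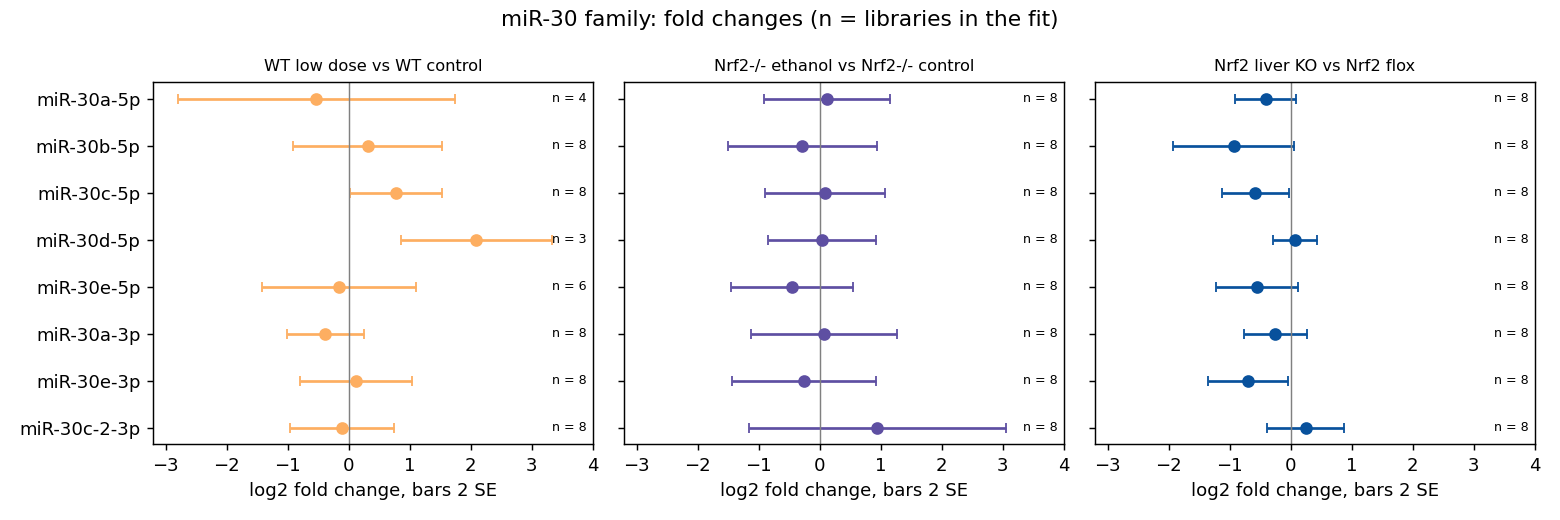
log2 fold change of each member in the 3 comparisons of 4 libraries against 4, with bars of 2 SE on either side and n the number of libraries with a value. At the low dose miR-30d-5p rests on 3 libraries, in the Nrf2-/- panel all bars cross 0, and in the liver KO panel 6 of 8 points lie below 0.

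In the liver KO against flox comparison most members were lower, but none passed the threshold, with 0% of 295 miRNAs called. Of the 8 members 6 were lower and 2 higher, with a median log2 fold change of -0.48 against -0.0034 over all miRNAs. None had an unadjusted p below 0.05, while 36 of 295 miRNAs (12.2%) did, and DESeq2 called 0 members and 0 miRNAs at the adjusted threshold. Members at an unadjusted p below 0.05 numbered 3 without liver KO 4, with the replicate block or with no filter. They numbered 2 without flox 2 or flox 3, with DESeq2 or with the plain total, and 1 without liver KO 3. Without flox 1, flox 4, liver KO 1 or liver KO 2 they numbered 0. How many of all miRNAs did so in these fits is not given here, so the numbers stand without a background. miR-30b-5p had the largest difference, with 1199, 566, 2346 and 3071 CPM in the liver KO and 4254, 2310.3, 1899 and 5225 CPM in flox. Liver KO 1 and 2 lay below every flox library and liver KO 3 and 4 within the flox range. It had a log2 fold change of -0.93 ± 0.50 (SE), unadjusted p 0.0865 and adjusted p 0.477 (edgeR). miR-30c-5p was read at 4985, 3397, 5729 and 6416 CPM against 9179, 5833, 6109.6 and 9583 CPM, so that liver KO 1, 2 and 3 lay below every flox library and liver KO 4 within their range. It had a log2 fold change of -0.58 ± 0.27 (SE), unadjusted p 0.056 and adjusted p 0.379 (edgeR), or 0.669-fold.

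miR-30e-5p was read at 2114, 1201, 2965 and 3664 CPM in the liver KO and 4102, 3103, 3052 and 4264 CPM in flox, with a log2 fold change of -0.55 ± 0.34 (SE), unadjusted p 0.131 and adjusted p 0.482 (edgeR). Its 3p arm went the same way, at 279.9, 201, 489 and 413 CPM against 653, 460.0, 442 and 696 CPM, with a log2 fold change of -0.70 ± 0.33 (SE), unadjusted p 0.0556 and adjusted p 0.379 (edgeR). miR-30a-5p averaged 9036 CPM ± 2738 (SD, n = 4) in the liver KO and in flox 12015 CPM ± 849.7 (SD, n = 4), with a log2 fold change of -0.41 ± 0.25 (adjusted p 0.477), and miR-30a-3p 948 CPM ± 171 (SD, n = 4) against 1129 CPM ± 149 (SD, n = 4), -0.25 ± 0.26 (adjusted p 0.708). For miR-30d-5p the value was 0.073 ± 0.18 (adjusted p 0.883) and an interval of 2 SE from -0.28 to 0.43. miR-30c-2-3p averaged 486 CPM ± 139 (SD, n = 4) against 408 CPM ± 127 (SD, n = 4), 0.25 ± 0.32 (adjusted p 0.793). Scaled by all counts instead of miRNA counts, all 8 members, and the median of all miRNAs (-0.30), were lower. No member had groups that did not overlap, while 12 of 295 miRNAs (4.07%) did.

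Several members varied together from library to library in this table. Liver KO 2 was the lowest of the 8 libraries for 6 members and the highest for miR-30c-2-3p, and flox 4 was the highest for 5. After the group means were removed, the Pearson correlation over the 8 libraries was 0.97 between miR-30b-5p and miR-30e-5p, 0.96 between miR-30b-5p and miR-30c-5p and 0.92 between the 2 arms of miR-30e. miR-30d-5p had -0.23 with miR-30b-5p, and miR-30c-2-3p had -0.94 with miR-30b-5p. The values share their library, its depth and its scaling factor, and the correlations are given as a description. Summed epididymis markers, led by Crisp1 and Cd52, stood at 634 to 828 CPM of all counts in flox and 166 to 514 CPM in the liver KO (200 CPM, 278 CPM, 514 CPM and 166 CPM in liver KO 1 to 4), with Spint4 at 0 in the liver KO and at 0 to 99 reads in flox. All 5 tested of 12 epididymis genes were lower, with a median log2 fold change of -1.27, and all 7 smooth muscle and fibroblast genes were lower, with -0.60. The part of these cells in the values of the family was not tested.

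**Figure D5:**
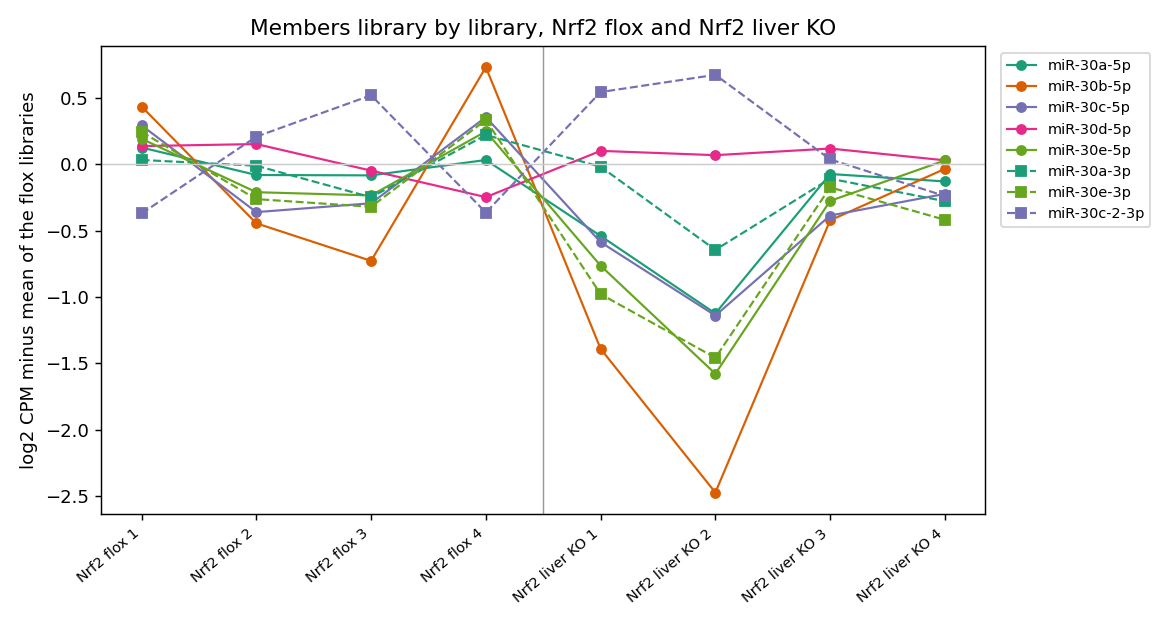
log2 CPM of each member minus its mean over the flox libraries, for the 4 flox and 4 liver KO libraries. Circles are 5p and squares 3p arms, and lines only join the points of 1 member. Liver KO 1 and 2 are low for 5p arms other than miR-30d-5p, which stays level, and high for miR-30c-2-3p.

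Genes around the family were read from exon counts, which in small RNA libraries are mostly fragments. Of 13 genes of miRNA processing and Argonaute function, 12 were tested in the WT table and 9 in each of the other tables, and 0 passed the adjusted threshold in any comparison, where 0% of 18647, 10299 and 10419 features outside miRNAs did. At an unadjusted p below 0.05 there were 0 at the low dose, 1 in Nrf2-/- mice (Drosha) and 1 in the liver KO (Xpo5), beside 1436, 516 and 1336 of all features. At the low dose 7 were higher and 5 lower (median log2 fold change 0.0094, against 0.0054 over all features). In Nrf2-/- mice 1 was higher and 8 lower (median -0.36 against -0.28). Drosha, which cuts the hairpin from its precursor, had a log2 fold change of -1.02 ± 0.40 there (adjusted p 0.729, edgeR). In the liver KO 3 were higher and 6 lower (median -0.38 against -0.039), with -0.93 ± 0.43 (adjusted p 0.374) for Xpo5, the exporter of hairpins from the nucleus. Ago2, the Argonaute that can slice its targets, stood at 0.00 ± 0.25, -0.38 ± 0.52 and 0.20 ± 0.24 in the 3 comparisons.

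The reported targets of the family were listed as 14 gene symbols, among which Ccn2 and Ctgf name the same gene. Of these, 8, 6 and 7 were tested in the WT, Nrf2-/- and flox and liver KO tables, and 0 passed in edgeR or had an unadjusted p below 0.05. They were 5 higher and 3 lower at the low dose, 1 higher and 5 lower in Nrf2-/- mice and 2 higher and 5 lower in the liver KO. Their median log2 fold changes were 0.10, -0.66 and -0.66, against 0.0054, -0.28 and -0.039 over all features outside miRNAs. Becn1 and Twf1 were picked after values were seen, and both were among the targets that were lower in Nrf2-/- mice and the liver KO. Becn1, which starts autophagy, had log2 fold changes of -0.52 ± 0.52, -0.96 ± 0.64 and -0.66 ± 0.46. Twf1, which binds actin, had 0.17 ± 0.31, -1.08 ± 0.64 and -0.73 ± 0.57. The host gene Nfyc was tested in the WT table only, with -0.55 ± 0.67 at the low dose (adjusted p 0.955), and its exon reads stood at 0 to 3.11 CPM over all libraries.

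Outside the family, the miRNAs whose profile was most like the summed 5p arms were sought among 111 with no missing value in any table, by the Pearson correlation of log2 values after removal of group means. This was possible over the 16 Nrf2-/-, flox and liver KO libraries, since the complete WT libraries were single in their groups. The 5 most alike were miR-218-5p (0.81), miR-27b-3p (0.78), miR-297b-3p (0.78), miR-199a-5p (0.75) and miR-297c-3p (0.73). These were picked as the highest of 111 and are a description of these libraries.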

How the data were processed

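Sperm RNA was extracted with Trizol and made into Qiaseq small RNA libraries, per the labels' protocols, and was deposited by the authors as 3 tables of raw read counts per annotated feature. For these counts, aligner, counter, genome build and treatment of multiply mapped reads are not given in the sources used here. Counts were summed per miRNA name. Every column had a sample. A count of 0 was treated as missing where over 50 reads were expected provided that 3 or more libraries of the row had reads and none of those had fewer than 10.

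miRNAs were tested in R 4.3.3 with edgeR 4.0.16 (filterByExpr, TMM on miRNA counts, quasi-likelihood F test, two-sided, Benjamini-Hochberg at 0.05), the 12 WT libraries in 1 fit and the other tables in their own, refitting rows with missing values on the libraries that had one. The difference of responses used both alcohol tables, 20 libraries. Exons and other features were tested apart from miRNAs. Arm balance and figures used Python 3.11.15, numpy 2.4.6, pandas 2.3.3 and matplotlib 3.10.9. Marker sums are CPM of all counts. DESeq2 1.42.0, other library sizes, no filter, zeros kept, only the groups compared, a replicate block, a pseudocount of 10 and leaving out each library were alternatives. In the Nrf2-/- table the deviations of same-numbered libraries had correlations of 0.109 to 0.225, and no same-numbered libraries were each other's best match. The labels give only a number, so whether the numbers pair the libraries is not known. The replicate block changed no call there. The method was tested on simulated data. It recovered most of the large changes put into the liver KO comparison but only a minority of the smaller ones. In the low dose and Nrf2-/- comparisons it recovered few or none, so the absence of calls there carries little information. In the liver KO the absence of calls carries little information for changes as small as those of the members.

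All 8 members were described. By rule the other names given were the rows of the same hairpins, the 5 most alike miRNAs, and genes from the lists of miRNA processing, reported targets, host gene, targeted gene and cell markers. Becn1, Twf1, Drosha, Xpo5 and Ago2 were picked within their lists after values were seen. The members and lists were chosen with earlier results of these data known.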

Additional observations from a re-analysis of the deposited data

Results flagged for a closer look

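miR-30b-5p stood at 2200.4 CPM in WT low dose 4, far below the other 3 low dose libraries at 4386 to 4589 CPM. The gap to its neighbour was 0.915 of the whole range of the group, above Dixon's critical value at the 95% level for 4 samples. Of 42 groups of 4 examined over the 8 members, 1 was picked out, and chance picks out about 1 in 20 groups.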

How the results depend on the processing

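No member passed the adjusted threshold in edgeR under any scaling, filter or treatment of missing values tried, with each library left out in turn, or with a replicate block in the 3 comparisons where one was fitted (0 members called with and without the replicate block in each). The exception was DESeq2 at the low dose, where 2 members were called, and the cause was not tested. Leaving miRNAs with missing values out of the spread, an alternative chosen after seeing the data, called 0 members and 5 miRNAs at the low dose. Over all miRNAs, where the reported count was 0, DESeq2 called 26 at the low dose, 5 for the mean of doses and 2 for the difference of responses, the fit of only the 2 groups called 5 at the low dose, and the unfiltered fit called 9, 2 and 3 at the low and medium dose and for the mean of doses, 1 in Nrf2-/- mice, 2 in the liver KO and 3 for the difference of responses. With the plain total of miRNA counts the sign turned for miR-30b-5p (-0.32) and miR-30e-3p (-0.56) at the low dose, for miR-30a-5p (-0.24), miR-30c-5p (-0.26), miR-30d-5p (-0.34) and miR-30a-3p (-0.27) in Nrf2-/- mice, and for miR-30d-5p (-0.12) in the liver KO. With the total of all classes it turned for miR-30b-5p (-0.069) and miR-30e-3p (-0.21) at the low dose, miR-30b-5p (0.0092) and miR-30e-3p (0.10) in Nrf2-/- mice, and miR-30d-5p (-0.24) and miR-30c-2-3p (-0.095) in the liver KO. With DESeq2 it turned for miR-30c-5p (-0.069), miR-30d-5p (-0.038) and miR-30a-3p (-0.0090) in Nrf2-/- mice. With 1 library left out, signs turned within these ranges: at the low dose miR-30b-5p -0.022 to 0.62, miR-30e-5p -0.57 to 0.23, miR-30e-3p -0.23 to 0.48 and miR-30c-2-3p -0.42 to 0.12. In Nrf2-/- mice these were miR-30a-5p -0.13 to 0.40, miR-30b-5p -0.49 to 0.016, miR-30c-5p -0.13 to 0.24, miR-30d-5p -0.048 to 0.20, miR-30a-3p -0.22 to 0.36 and miR-30e-3p -0.66 to 0.056. In the liver KO it was miR-30d-5p -0.0034 to 0.11. The difference in arm balance ran from -0.057 to 0.55 for miR-30e at the low dose, -0.10 to 0.21 for miR-30a and -0.50 to 0.12 for miR-30e in Nrf2-/- mice and -0.0047 to 0.19 for miR-30e in the liver KO. The other 7 liver KO fold changes kept their sign with each library left out. Same-numbered libraries deviated with correlations of -0.14 to 0.11 in the WT and -0.30 to 0.42 in the flox and liver KO comparison. miR-30c-2-3p had 0 to 48 reads in WT and Nrf2-/- libraries, so counting error adds to its spread there.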
